A study of Mus musculus with 58 samples.

Results

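The ADAM, ADAMTS and ADAMTSL genes encode the adamalysin metalloproteases and their relatives, and their expression was followed here in 2 muscles of mice that carried human pancreatic tumours. All probe sets whose symbol was Adam, Adamts or Adamtsl followed by a number were taken, which gave 57 genes among 23185 named genes on the array. They comprised 34 Adam, 18 Adamts and 5 Adamtsl genes. The 20 genes whose mean log2 expression passed 4 in the tibialis anterior or in the diaphragm are described one by one, namely 7 Adam, 8 Adamts and 5 Adamtsl genes. The other 37 are given as counts. A mean is taken here over all arrays of a muscle, PDX and sham together, so a gene can pass the limit through the group in which it is high. Adam8 did so: its mean was 4.43 on PDX and 3.89 on sham diaphragm arrays and under 4 in the tibialis anterior. Adamts20 passed through the diaphragm as well, with 4.14 on PDX and 3.90 on sham arrays, although its sham tibialis anterior mean was 4.04. Just inside this limit were Adamts20 at 4.04, Adamts6 at 4.20, Adam8 at 4.21 and Adamts8 at 4.21, and just outside it were Adamts14 at 3.99, Adam19 at 3.98 and Adam12 and Adam23 at 3.97. The median of all probe sets was 3.78, so these genes lie where the array separates signal from background poorly.

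The animals were adult female NSG mice, an immunodeficient strain without mature T, B and natural killer cells, in which macrophages and neutrophils remain. In tumour-bearing mice, pieces of pancreatic ductal adenocarcinoma from 1 of 4 patients were grown on the pancreas as a patient-derived xenograft (PDX), and the mice developed cachexia, the wasting of muscle and fat that accompanies advanced cancer. Sham mice of the same strain had the operation and no tumour. Each patient's tumour defines a cohort with its own sham mice. The diaphragm, which drives breathing, was represented by 3, 5, 5 and 4 PDX arrays in cohorts 1, 2, 3 and 4 and by 3 sham arrays in each, and the tibialis anterior, a shin muscle that lifts the foot, had the same numbers. This made 17 PDX and 12 sham arrays per muscle and 58 arrays in all. All tumour-bearing mice of a cohort carried the tumour of the same patient. They were taken at severe cachexia or at a limit of tumour size, so time after implantation was not one fixed value.

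ADAM proteins are membrane-anchored enzymes, and several of them cut the outer part of other membrane proteins free, a process called shedding. ADAM17 releases tumour necrosis factor and its receptors, and ADAM10 sheds Notch and cadherins. ADAMTS proteins are secreted and act in the extracellular matrix, where one branch cleaves the proteoglycans aggrecan and versican and other members act on procollagens, cartilage oligomeric matrix protein or fibrillin microfibrils. ADAMTSL proteins share the ancillary domains of the ADAMTS enzymes but lack the catalytic domain, and several of them bind microfibrils. In muscle, the matrix that these enzymes act on surrounds every fibre and is made largely by fibroblasts.

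Differences are given as log2 differences of PDX minus sham, computed within each cohort and averaged over the 4 cohorts with equal weight, with limma's standard error (SE). A gene passed when its limma p, adjusted by the Benjamini-Hochberg method over all 23185 named genes, was under 0.05. A log2 difference of 1 is a 2-fold change. The array values are log2 signals, and differences are taken only between values of the same gene. Levels are also set against the limit of 4 and against the median of all probe sets or of an array.

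The muscles matched their labels: fast and slow fibre genes were above the median of all probe sets in both muscles, except the slow myosin Myh7, whose mean lay below it in the tibialis anterior. Other cells moved with the groups. All 11 measured fibroblast markers passed lower in the PDX tibialis anterior, where their mean log2 value was 5.06 to 6.54 on PDX arrays and 6.55 to 7.18 on sham arrays, and 4 of 5 tendon markers passed lower there. In the diaphragm 2 fibroblast markers passed higher and 2 lower, while 7 of 9 macrophage markers passed higher, with a mean of 5.83 to 7.29 on PDX and 5.28 to 6.06 on sham arrays. Many diaphragm arrays of both groups also held liver transcripts: albumin (Alb) exceeded a log2 value of 9 on 9 of 17 PDX and 6 of 12 sham diaphragm arrays, and none of 12 hepatocyte markers passed between PDX and sham in either muscle. In such bulk samples, fewer cells of a type and less RNA per cell cannot be told apart.

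The tumour effect on the family differed between the muscles. In the diaphragm 11 of the 20 described genes passed higher in PDX mice and 1 passed lower, against 12.5% of all named genes that passed in either direction, 5.89% higher and 6.58% lower. In the tibialis anterior 1 of the 20 passed higher and 4 passed lower, against 12.8% of all named genes in either direction, 6.32% higher and 6.53% lower. The median difference of the 20 genes was 0.25 in the diaphragm and -0.09 in the tibialis anterior, whereas the median over all named genes was close to 0 in both muscles, at -0.0043 and -0.0051. A positive difference was found for 18 of the 20 genes in the diaphragm and for 7 of the 20 in the tibialis anterior. The shares and medians over all named genes include genes under the limit of 4, so they are not a matched background. On the sham arrays alone, the limit of 4 would take Adam19 in place of Adam8, which gives 10 higher and 1 lower in the diaphragm (median 0.24) and 1 higher and 5 lower in the tibialis anterior (median -0.14). That choice was made after seeing the data. By family, 4 of 7 Adam, 5 of 8 Adamts and 2 of 5 Adamtsl genes passed higher in the diaphragm. The diaphragm count of 11 was 3 without cohort 1 or cohort 2 and 7 without cohort 3. The calls of Adam8, Adam9, Adamts6 and Adamts20 in the diaphragm were not stable when 1 array was left out. They ended in 19, 14, 14 and 3 of 29 repeats, and the call of Adamts10 in the tibialis anterior ended in 8 of 29.

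**Figure D1:**
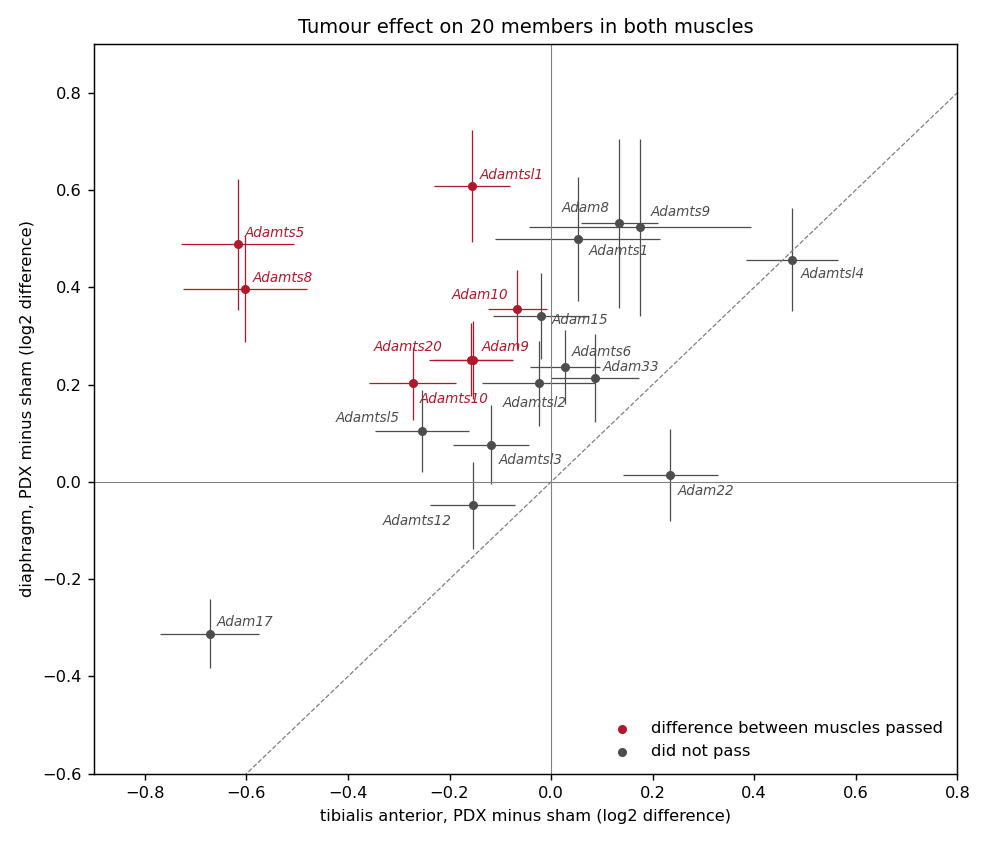
The log2 difference of PDX minus sham in the diaphragm (vertical axis) is plotted against that in the tibialis anterior (horizontal axis) for the 20 described genes, with bars of 1 SE, and the dashed line marks equal effects. The 7 genes in red, whose effects differed between the muscles, all lie above the line, while Adamtsl4 lies on it and Adam17 is lower in PDX mice on both axes.

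Among the secreted proteoglycanases, Adamts5 (the main aggrecan-cleaving enzyme of mouse cartilage) changed in opposite directions. In the diaphragm its log2 value was 5.70 at the lowest, 6.17 at the median and 7.54 at the highest on PDX arrays, against 5.24, 5.75 and 6.11 on sham arrays. Its tibialis anterior values were 4.41, 5.14 and 5.61 on PDX arrays, against 5.25, 5.63 and 6.18 on sham arrays. The PDX arrays were thus shifted up in the diaphragm and down in the tibialis anterior, with overlap between all PDX and all sham arrays in each muscle. Adamts5 was 1.40-fold higher in the PDX diaphragm, a log2 difference of 0.49 (SE 0.13, limma adjusted p = 0.0161). It was 0.652-fold the sham level in the PDX tibialis anterior, a log2 difference of -0.62 (SE 0.11, limma adjusted p = 0.000359). All 4 cohorts had the sign of the mean in each muscle, at 0.50, 0.95, 0.34 and 0.15 in the diaphragm and -0.78, -0.52, -0.53 and -0.64 in the tibialis anterior for cohorts 1 to 4. In 2 cohorts of each muscle, every PDX array lay on one side of every sham array. The diaphragm call of Adamts5 did not hold without cohort 1, 2 or 3 (0.48, 0.33 and 0.54), with the cohort as the replicate or on the arrays with less albumin.

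Adamts8, a related proteoglycanase, followed the same pattern at a lower signal. It reached 3.59 at the lowest, 4.39 at the median and 4.93 at the highest on PDX diaphragm arrays, against 3.37, 3.99 and 4.90 on sham diaphragm arrays. On the tibialis anterior arrays it was 3.30, 3.83 and 4.40 in PDX mice, against 3.84, 4.41 and 5.05 in sham mice, and 6 of the 17 PDX arrays were below the median of their array. The tumour effect was 0.40 (SE 0.11, limma adjusted p = 0.0164) in the diaphragm and -0.60 (SE 0.12, limma adjusted p = 0.00103) in the tibialis anterior. The tibialis anterior effect was negative in every cohort, between -0.98 and -0.30. The diaphragm effect was uneven, at 1.09 in cohort 1 and 0.47 in cohort 3 but -0.05 in cohort 2 and 0.08 in cohort 4. The diaphragm call of Adamts8 did not hold without cohort 1 (0.17, limma adjusted p = 0.577), in an additive model of cohort and treatment (0.37, limma adjusted p = 0.0665), with the cohort as the replicate or on the arrays with less albumin. A total of 106 of all named genes (0.457%) passed lower in the tibialis anterior and higher in the diaphragm, and Adamts5 and Adamts8 were the 2 described genes among them.

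**Figure D2:**
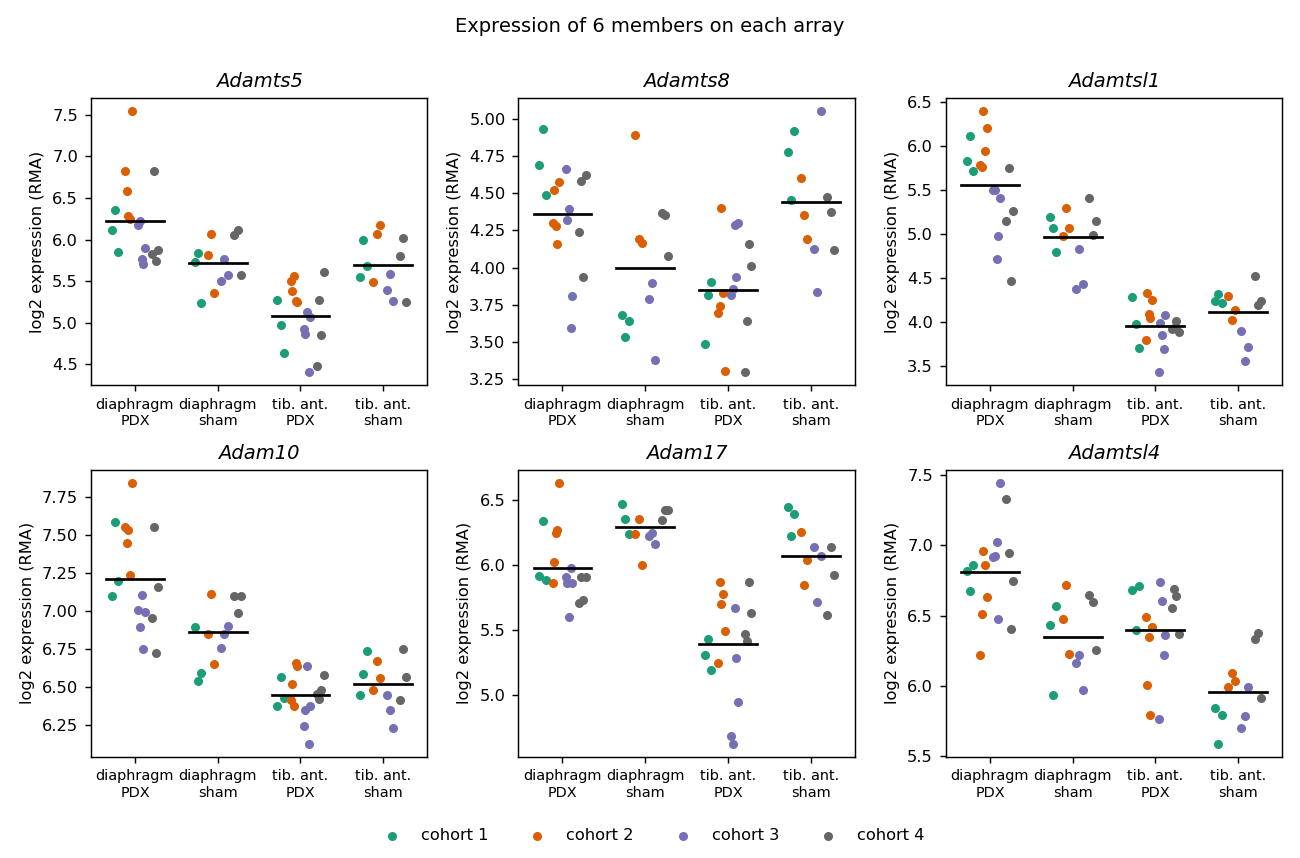
Log2 expression on each array is shown for 6 genes, with PDX arrays left of sham arrays in the diaphragm and then in the tibialis anterior, colours for the 4 cohorts and a black line at the mean of the group. Adamts5 and Adamts8 lie higher in the PDX diaphragm and lower in the PDX tibialis anterior than in sham mice, Adam17 lies lower in PDX mice in both muscles, and Adamtsl4 lies higher in both.

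Adamts1, which cleaves versican and aggrecan, was higher in the PDX diaphragm. Its values there were 5.73, 6.83 and 7.86 (lowest, median and highest) on PDX arrays, against 5.67, 6.41 and 7.06 on sham arrays. The groups overlapped widely, and the difference of 0.50 (SE 0.13, limma adjusted p = 0.0094) was positive in all 4 cohorts. Adamts1 differed by 0.05 in the tibialis anterior (95% interval -0.28 to 0.39, limma adjusted p = 0.906), with 0.74 in cohort 3 and values between -0.33 and -0.03 in the other cohorts.

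Adamts9, a secreted versican-cleaving enzyme, did not pass in either muscle in the main analysis. In the diaphragm it was 5.63, 6.66 and 7.92 on PDX arrays, against 5.47, 5.97 and 7.30 on sham arrays, a difference of 0.52 (SE 0.18, limma adjusted p = 0.0602). Under 5 of 18 alternative analyses Adamts9 passed higher in the diaphragm. It was at 0.54 with array weights (limma adjusted p = 0.0149) and at 0.76 without cohort 4 (limma adjusted p = 0.0245). Its tibialis anterior values were 5.02, 5.80 and 9.23 on PDX arrays, against 5.08, 5.89 and 6.54 on sham arrays. The value of 9.23 came from a single PDX array, replicate 1 of cohort 3, and the cohort effects were -0.78, 0.18, 1.41 and -0.12. Adamts20, a versican-cleaving relative of Adamts9, rose by 0.25 in the diaphragm (SE 0.07, limma adjusted p = 0.026), with 3.56, 4.15 and 4.45 on PDX arrays and 3.71, 3.92 and 4.16 on sham arrays. It differed by -0.16 in the tibialis anterior (limma adjusted p = 0.257).

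Adamts4 and Adamts15, dimmer proteoglycanases outside the described set, also passed higher in the PDX diaphragm. Adamts4, the other main aggrecanase, had a difference of 0.50 (SE 0.13, limma adjusted p = 0.0122), but 15 of 17 PDX and 12 of 12 sham arrays were below their array's median. Adamts15 had a difference of 0.60 (SE 0.13, limma adjusted p = 0.00279), with 14 of 17 PDX and 12 of 12 sham arrays below it. In the reference annotation Adamts15 is the neighbour of Adamts8, and Adamts1 that of Adamts5, with 0 protein-coding genes between the members of each pair. The members form 14 such adjacent pairs, and these are the 2 pairs of which both genes passed higher in the PDX diaphragm, chosen after their values were seen. In the tibialis anterior both genes passed in the same direction in 0 of the 14 pairs.

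Of the enzymes that act on microfibrils and on cartilage oligomeric matrix protein, Adamts10, linked to fibrillin, differed by 0.20 in the diaphragm and did not pass (SE 0.07, limma adjusted p = 0.0807). On tibialis anterior arrays it was 3.92, 4.32 and 4.65 in PDX mice, against 4.23, 4.53 and 4.97 in sham mice. This difference of -0.27 passed (SE 0.09, limma adjusted p = 0.0342) and was negative in all 4 cohorts, but the call did not hold when any 1 cohort was left out. Adamts6, its close relative, rose in the PDX diaphragm by 0.24 (SE 0.08, limma adjusted p = 0.0413), with 4.05, 4.26 and 4.70 on PDX and 3.78, 4.04 and 4.41 on sham arrays, and differed by 0.03 in the tibialis anterior. Adamts12, which cleaves cartilage oligomeric matrix protein, passed in neither muscle, at -0.05 in the diaphragm and -0.15 in the tibialis anterior. Adamts7, an enzyme with the same substrate that lies outside the described set, was higher in the PDX diaphragm by 0.32 (SE 0.10, limma adjusted p = 0.0306), with 11 of 17 PDX and 11 of 12 sham arrays below the array median.

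Among the membrane enzymes, Adam17 was the described gene that passed lower in both muscles. In the diaphragm Adam17 was 5.60, 5.91 and 6.63 on PDX arrays, against 6.003, 6.29 and 6.47 on sham arrays. The diaphragm difference was -0.31 (SE 0.07, limma adjusted p = 0.0037), with -0.31, 0.01, -0.37 and -0.58 in cohorts 1 to 4, so that cohort 2 was not negative. Its tibialis anterior values were 4.63, 5.43 and 5.87 on PDX arrays, against 5.62, 6.10 and 6.44 on sham arrays. The lowest sham array there was thus above the median PDX array. The tibialis anterior difference was -0.67 (SE 0.10, limma adjusted p = 2.72e-05), or 0.628-fold the sham level. The cohort effects were -1.04, -0.43, -0.93 and -0.29, and in 2 cohorts every PDX array lay below every sham array. The difference between the muscles did not pass (0.36, 95% interval 0.11 to 0.61, limma adjusted p = 0.0678).

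Adam10, the other major sheddase, did not follow Adam17. In the diaphragm it was 6.72, 7.16 and 7.85 on PDX arrays, against 6.54, 6.88 and 7.12 on sham arrays. It rose by 0.35 (SE 0.08, limma adjusted p = 0.0042), with 0.62 and 0.65 in cohorts 1 and 2, where every PDX array was above every sham array, and 0.11 and 0.04 in cohorts 3 and 4. On tibialis anterior arrays it was 6.13, 6.43 and 6.66 on PDX arrays, against 6.23, 6.52 and 6.75 on sham arrays. That difference was -0.07 (95% interval -0.19 to 0.05, limma adjusted p = 0.563), and the groups covered nearly the same range.

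Adam9 and Adam15 encode widely expressed membrane metalloproteases, and ADAM15 carries an integrin-binding motif. Adam15 rose by 0.34 in the PDX diaphragm (SE 0.09, limma adjusted p = 0.0108), with 6.31, 6.90 and 7.32 on PDX and 6.11, 6.62 and 6.98 on sham arrays, and differed by -0.02 in the tibialis anterior. Adam9 rose by 0.25 in the PDX diaphragm (SE 0.08, limma adjusted p = 0.0409), positive in all 4 cohorts, and differed by -0.15 in the tibialis anterior (limma adjusted p = 0.235). Without the tibialis anterior array of PDX replicate 1 in cohort 3, Adam9 passed lower there, at -0.20 (limma adjusted p = 0.0159). Adam8, an enzyme of leukocytes, was 3.66, 4.34 and 5.54 on PDX diaphragm arrays, against 3.23, 3.87 and 4.34 on sham arrays. It rose by 0.53 (SE 0.17, limma adjusted p = 0.0443), with 0.69, 0.69 and 0.90 in cohorts 1 to 3 and -0.15 in cohort 4. The macrophage markers were higher in the same muscle, as given above, and their part in this difference was not tested. For the tibialis anterior, 13 of 17 PDX and 12 of 12 sham arrays gave Adam8 a value below their median, and the difference was 0.13.

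Adam33, expressed in mesenchymal and smooth muscle cells, did not pass in the diaphragm (0.21, limma adjusted p = 0.138) or in the tibialis anterior (0.09, limma adjusted p = 0.633). Adam22, a catalytically inactive member that serves as a neuronal receptor for LGI1, differed by 0.01 in the diaphragm. It differed by 0.23 in the tibialis anterior and did not pass (SE 0.09, limma adjusted p = 0.109).

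Among the ADAMTS-like genes, Adamtsl4, whose product binds fibrillin and whose loss causes displaced lenses in people, passed higher in both muscles. In the diaphragm it was 6.22, 6.86 and 7.44 on PDX arrays, against 5.93, 6.34 and 6.71 on sham arrays. On tibialis anterior arrays it was 5.77, 6.42 and 6.74 on PDX arrays, against 5.59, 5.95 and 6.38 on sham arrays. The median PDX array lay above the highest sham array in both muscles. The differences were 0.46 in the diaphragm (SE 0.11, limma adjusted p = 0.00474) and 0.47 in the tibialis anterior (SE 0.09, limma adjusted p = 0.000624), and every cohort was positive in both muscles. The difference between the muscles was -0.02, with a 95% interval of -0.30 to 0.27. Across all named genes 3.59% passed in both muscles in the same direction, and Adam17 and Adamtsl4 were the 2 described genes among them.

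Adamtsl1, known as punctin, had the highest diaphragm difference of the 20 genes. Its values were 4.47, 5.72 and 6.40 on PDX diaphragm arrays, against 4.38, 5.03 and 5.41 on sham diaphragm arrays. It rose 1.52-fold, a log2 difference of 0.61 (SE 0.11, limma adjusted p = 0.000827), with 0.87, 0.91 and 0.68 in cohorts 1 to 3 and -0.02 in cohort 4. On tibialis anterior arrays it was 3.43, 3.97 and 4.33 on PDX arrays, against 3.55, 4.21 and 4.53 on sham arrays, a difference of -0.15 that did not pass (limma adjusted p = 0.205). Adamtsl2, Adamtsl3 and Adamtsl5 passed in neither muscle. Adamtsl5, a heparin- and fibrillin-binding protein, came nearest in the tibialis anterior, at -0.25 (SE 0.09, limma adjusted p = 0.0735), with -0.71 in cohort 3 and 0.13 in cohort 4.

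The difference of the tumour effect between the muscles, diaphragm minus tibialis anterior, was tested in a fit of all 58 arrays. It passed with a positive sign for 7 of the 20 described genes and with a negative sign for 0, against 6.33% of all named genes in either direction, 3.66% positive and 2.67% negative. At an unadjusted p under 0.05 no described gene had a negative difference either. The difference was 1.11 for Adamts5 (SE 0.18, limma adjusted p = 3.54e-05), 1.00 for Adamts8 (SE 0.17, limma adjusted p = 6.92e-05) and 0.76 for Adamtsl1 (SE 0.14, limma adjusted p = 0.0002). It was smaller for Adamts10 at 0.48, Adam10 at 0.42, Adamts20 at 0.41 and Adam9 at 0.40. All 7 had a positive difference in each of the 4 cohorts. The Adamts8 difference did not pass without cohort 1 (0.64, limma adjusted p = 0.0837) or with albumin below 9 (0.72, limma adjusted p = 0.166). Those of Adam10, Adam9 and Adamts20 did not pass without cohort 1 or without cohort 2, nor that of Adamts10 without cohort 2. The median over the 20 genes was 0.36, against -0.0096 over all named genes. Adamts1 (0.45, limma adjusted p = 0.246), Adam8 (0.40, limma adjusted p = 0.253) and Adam15 (0.36, limma adjusted p = 0.0961) passed in the diaphragm without a passed difference between the muscles.

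**Figure D3:**
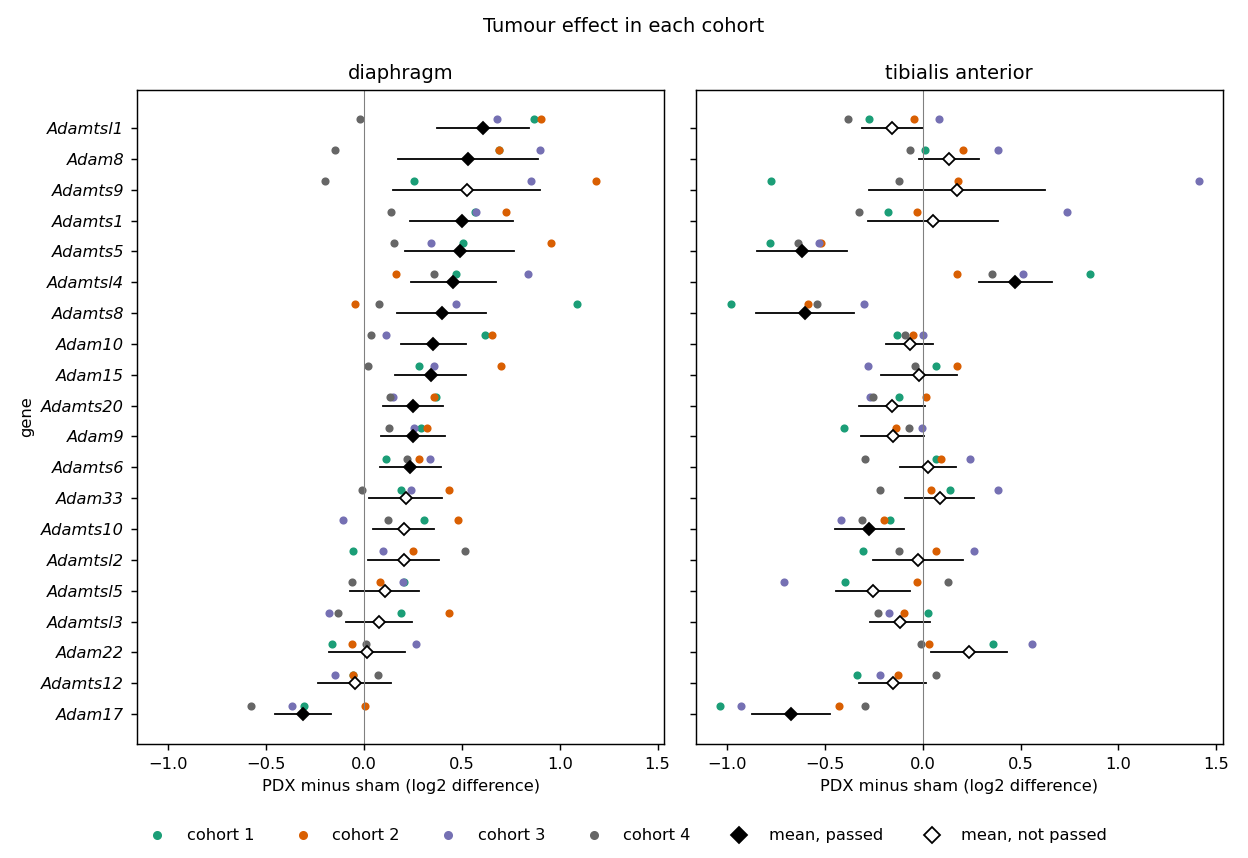
Each row is a gene, with the diaphragm on the left and the tibialis anterior on the right, small points for the difference of PDX minus sham in each cohort and a diamond with its 95% interval for the mean over cohorts, filled where the gene passed. In the diaphragm, cohort 4 of Adamtsl1 lies at -0.02 and cohorts 1 to 3 between 0.68 and 0.91, and the 4 cohorts of Adamts5 lie right of 0 in the diaphragm and left of it in the tibialis anterior.

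Whether the effect differed among the 4 cohorts was asked with a moderated F test. Of the described genes 0 passed in either muscle by limma, against 0.00431% of all named genes in the diaphragm and 0.0129% in the tibialis anterior. The smallest unadjusted p in the diaphragm was 0.00705, for Adamts8 (adjusted p = 0.482), and in the tibialis anterior 0.0122, for Adamts9 (adjusted p = 0.492). A p that misses the threshold does not show that the cohorts acted alike. In the diaphragm, the calls of Adam9 and Adamts6 did not hold whichever cohort was left out, that of Adam10 did not hold without cohort 1 or 2 (0.27 and 0.26), that of Adamts1 without cohort 1 or 2 (0.48 and 0.42), that of Adam15 without cohort 2 (0.22), that of Adamtsl4 without cohort 3 (0.33) and that of Adam17 without cohort 4 (-0.22). Adam8 lost its diaphragm call without cohort 1, 2 or 3 (0.48, 0.48 and 0.41). Adamts20 lost its diaphragm call without cohort 1 or 2 (0.21 and 0.22). The Adamtsl4 call in the tibialis anterior did not hold without cohort 1 (0.35). The diaphragm call of Adamtsl1 held whichever cohort was left out and did not hold with the cohort as the replicate.

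The muscles of sham mice already differed. Between the sham diaphragm and the sham tibialis anterior, 39.7% of all named genes passed, 15.2% higher in the diaphragm and 24.5% lower. Of the 20 described genes, 9 were higher in the diaphragm and 3 were lower. Adamtsl1 was 1.81-fold higher, with 4.38, 5.03 and 5.41 in sham diaphragm and 3.55, 4.21 and 4.53 in sham tibialis anterior, a difference of 0.85 (SE 0.10, limma adjusted p = 5.48e-09). Adam33 was higher by 0.56, Adamtsl3 by 0.50, Adam8 by 0.49, Adamtsl4 by 0.40, Adamts10 and Adam10 by 0.34, Adamts6 by 0.27 and Adam15 by 0.24. The genes lower in the diaphragm were Adam22 at -0.56, Adamts8 at -0.44 and Adam9 at -0.29. Adamts5 did not separate the sham muscles (0.03, 95% interval -0.25 to 0.30), and Adam17 narrowly did not pass (0.22, limma adjusted p = 0.0503).

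**Figure D4:**
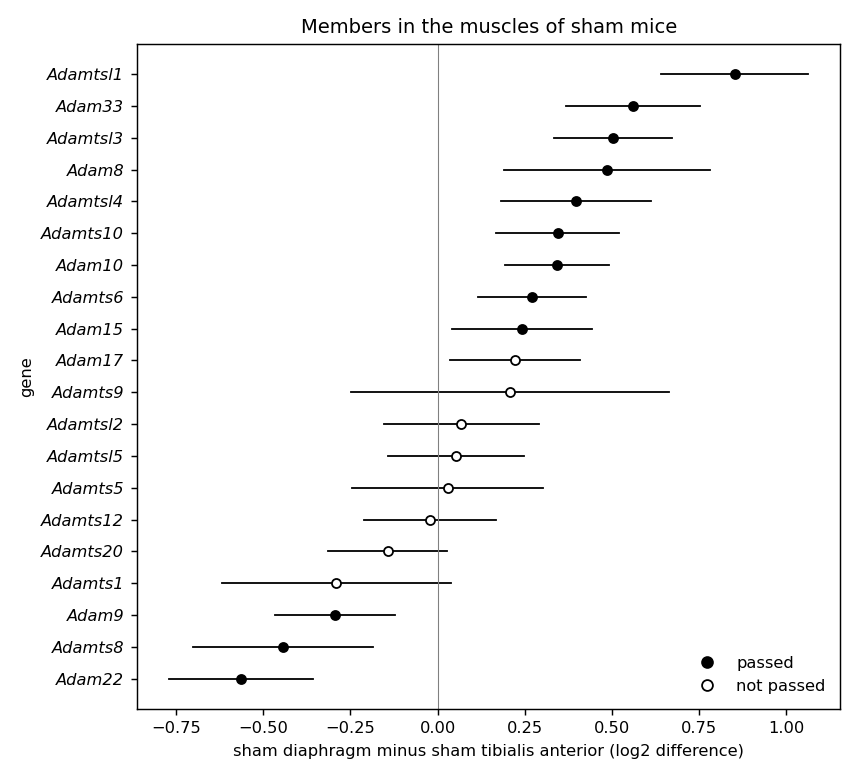
The log2 difference of sham diaphragm minus sham tibialis anterior is shown for the 20 genes with its 95% interval, filled where the gene passed. Adamtsl1 stands at 0.85 at the top and Adam22 at -0.56 at the bottom.

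Adamts8 and Adam9 thus had a lower level in the sham diaphragm and a tumour effect that was more positive there, whereas Adamtsl1, Adam10 and Adamts10 had a higher level in the sham diaphragm and a more positive effect there. The sham values enter both comparisons. Without cohort 1, the sham differences of Adamts8 and Adam9 were -0.22 and -0.27 and did not pass (limma adjusted p = 0.293 and 0.0505). On arrays with albumin below 9 they were -0.29 and -0.30 and did not pass either (limma adjusted p = 0.332 and 0.155). Markers of other cells also separated the sham muscles: all 12 hepatocyte and all 7 mesothelium markers were higher in the diaphragm, as were 9 of 11 fibroblast markers and 7 of 9 macrophage markers. Their part in these differences was not tested.

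Several diaphragm differences were as large on arrays with less albumin, although fewer genes passed. When the 9 diaphragm arrays with the most albumin were left out, 4 described genes passed higher and 0 lower: Adamtsl1 at 0.66, Adamts1 at 0.63, Adamtsl4 at 0.50 and Adam15 at 0.44. On the 8 PDX and 5 sham diaphragm arrays of cohorts 2 to 4 with albumin below 9, Adamtsl1 was at 0.69, Adamtsl4 at 0.63 and Adam15 at 0.51, and these 3 passed. Adamts5 stood at 0.46 in both subsets and did not pass (limma adjusted p = 0.203 and 0.328), and Adam17 stood at -0.30 and -0.29 (limma adjusted p = 0.0574 and 0.16). Without the 9 arrays, Adamts6 fell to 0.11, Adam10 to 0.28 and Adamts20 to 0.20, and these did not pass. With albumin as a covariate on all arrays, Adamts5 was at 0.49 and Adam17 at -0.31, and both passed.

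**Figure D5:**
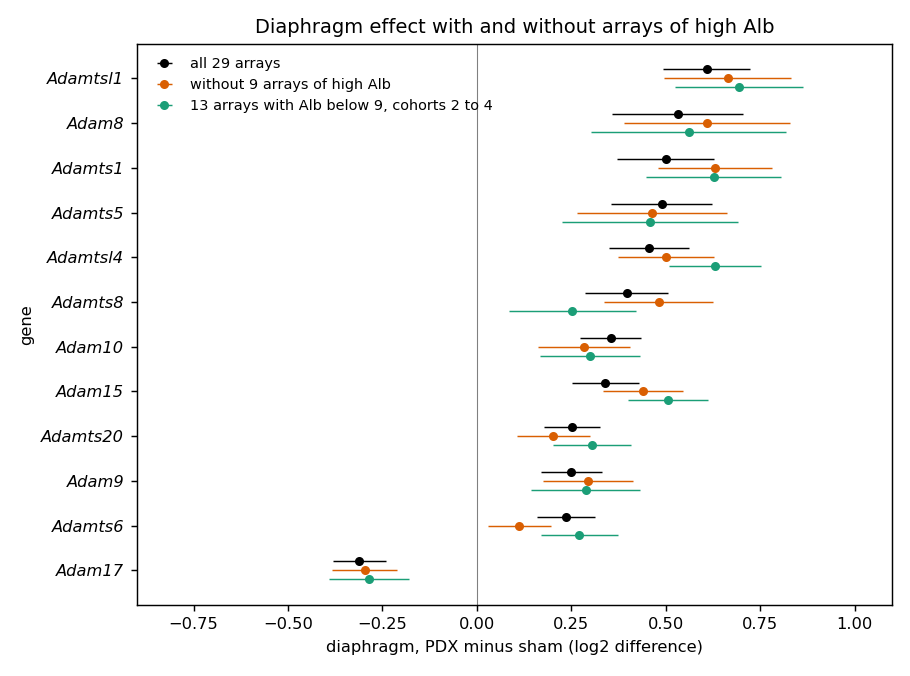
The log2 difference of PDX minus sham in the diaphragm, with bars of 1 SE, is shown for the 12 described genes that passed, over all arrays and over both subsets with less albumin. No gene changes sign. Adamts8 falls to 0.25 in the smallest subset, and Adam15 stands at 0.51 there. Adamts6 falls to 0.11 without the arrays of high albumin.

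With marker means as covariates, the tibialis anterior decreases were smaller or changed sign, and the SEs of Adamts5, Adamts8 and Adam17 were larger. For Adam17 the SE was 0.10 without a covariate, 0.22 with the fibroblast mean and 0.23 with the tendon mean. A lost call therefore does not show that a difference was gone. Adamts10 turned positive with both covariates. With the mean of the fibroblast markers as a covariate, Adamts5 was at -0.10, Adamts8 at -0.24 and Adam17 at -0.32, and with the mean of the tendon markers they were at -0.16, -0.30 and -0.62, and none passed. Adamtsl4 stayed at 0.64 and 0.52 under the same covariates but did not pass either (limma adjusted p = 0.333 and 0.999). The fibroblast mean itself separated PDX from sham arrays, so that its level and the tumour cannot be told apart in this muscle. The tendon mean was lower on PDX arrays but overlapped, at 3.37 to 4.97 on PDX and 4.38 to 6.28 on sham arrays. In the diaphragm, with the fibroblast mean as a covariate, Adamts5 was at 0.40, Adamts8 at 0.35, Adam17 at -0.35 and Adamtsl4 at 0.42, and all 4 passed.

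Of the 37 dimmer members, which are named here after their values were seen, 3 passed higher and 2 lower in the diaphragm, and 0 higher and 3 lower in the tibialis anterior. These shares are near those of all named genes, 5.89% higher and 6.58% lower in the diaphragm and 6.32% higher and 6.53% lower in the tibialis anterior. The lower ones in the tibialis anterior were Adam19 at -0.52, Adamts3, a procollagen N-propeptidase, at -0.31 and the sperm protein gene Adam2 at -0.21. Adam19 had 3.07, 3.71 and 3.97 on PDX arrays there, against 3.53, 4.22 and 4.54 on sham arrays, and was below the array median on 13 of 17 PDX and 1 of 12 sham arrays. Adamts3 and Adam2 were below the array median on all 17 PDX and all 12 sham arrays of this muscle. The lower ones in the diaphragm were Adam4 at -0.51 and Adamts17 at -0.23, both below the array median on 17 of 17 PDX and 10 of 12 sham arrays. The difference between the muscles passed for Adam23 (0.95, limma adjusted p = 0.016), which was below the array median on 5 of 17 PDX and 8 of 12 sham diaphragm arrays and on 17 of 17 PDX and 11 of 12 sham tibialis anterior arrays, and Adam19 (0.44, limma adjusted p = 0.0238). Over all 57 members, 14 passed higher and 3 lower in the diaphragm, and 1 higher and 7 lower in the tibialis anterior. Many of the Adam genes in this group are known for expression in testis and sperm.

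Genes that work with the family were taken from lists of known inhibitors, partners and substrates. Their counts stand against the shares of all named genes given above, 5.89% higher and 6.58% lower in the diaphragm and 6.32% higher and 6.53% lower in the tibialis anterior. Among 10 inhibitors of metalloproteases, 3 passed higher and 0 lower in the diaphragm, namely Timp1 at 1.47, Timp3, the main tissue inhibitor of ADAM17 and of aggrecanases, at 0.42 and Timp2 at 0.34. The Timp1 mean was 4.27 on PDX and 2.79 on sham diaphragm arrays, the latter below the median of all probe sets, 3.78. Within the tibialis anterior 2 inhibitors were higher, Timp4 at 0.49 and Spock2 at 0.33, and Timp2 was lower at -0.53. The list medians were 0.09 in the diaphragm and -0.07 in the tibialis anterior, beside the all-gene medians given above. Among 17 genes of activation and trafficking, 1 was higher and 1 lower in the diaphragm, and 2 were higher and 2 lower in the tibialis anterior, which is near those shares. Rhbdf2, an iRhom that carries ADAM17 to the cell surface, was higher in the PDX tibialis anterior by 0.50 (limma adjusted p = 6.28e-05), where Adam17 itself was lower. Its relative Rhbdf1 was higher in the PDX diaphragm by 0.28. The proprotein convertase Pcsk6 was lower in both muscles, at -0.36 in the diaphragm and -0.57 in the tibialis anterior.

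Of 39 measured membrane proteins that ADAM enzymes shed, 15 were higher and 2 lower in the diaphragm, and 3 were higher and 2 lower in the tibialis anterior. The diaphragm genes included Vcam1 at 1.05, the tumour necrosis factor receptor Tnfrsf1a at 0.76, Csf1r at 0.72 and Cxcl16 at 0.62. In the tibialis anterior Il6ra was higher by 1.67 and Tnfrsf1a by 0.49, while Axl was lower at -0.62. Of 19 proteoglycan and related substrates, 4 were higher and 1 lower in the diaphragm, with Vcan (versican) at 0.64 and Bgn at 0.64, and 0 were higher and 8 lower in the tibialis anterior, with Fmod at -1.64 and Bgn at -1.03. Of 22 microfibril partners, 10 were higher and 0 lower in the diaphragm, and 1 was higher and 9 lower in the tibialis anterior, with Mfap5 at -1.37 there. Of 12 genes of procollagen maturation, 6 were higher and 0 lower in the diaphragm, with Lox at 1.05, and 1 was higher and 8 lower in the tibialis anterior, with Col1a1 at -2.55. Median differences were 0.16, 0.05, 0.28 and 0.51 in the diaphragm and -0.02, -0.07, -0.29 and -0.63 in the tibialis anterior for the shed proteins, proteoglycans, microfibril partners and procollagen genes in that order. Some listed genes, such as Csf1r (macrophages) and Mfap5 (fibroblasts), also served as cell markers above. The part of other cells in these list counts was not tested.

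The region around the start of transcription was read for the described genes from RefSeq promoters of GRCm38.p6, each with 250 bases before and 50 after the start. It was available for 13 of the 20. The promoters of 4 genes, chosen after their values were seen, are printed 5′ to 3′ on the gene's strand. Adam17 passed lower and Adamtsl4 higher in both muscles, and Adam10 and Adamts1 passed higher in the diaphragm and did not pass in the tibialis anterior. Capitals mark the GC box GGGCGG and the TATA box TATAAA on either strand.
Adam17, chr12:21373583-21373882, minus strand: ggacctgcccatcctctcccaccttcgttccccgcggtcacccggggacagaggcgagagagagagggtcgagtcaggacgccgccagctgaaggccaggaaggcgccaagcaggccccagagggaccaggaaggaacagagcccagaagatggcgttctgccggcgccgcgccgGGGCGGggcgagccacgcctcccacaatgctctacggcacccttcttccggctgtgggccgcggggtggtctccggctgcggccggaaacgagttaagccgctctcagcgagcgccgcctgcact
Adamtsl4, chr3:95687868-95688167, minus strand: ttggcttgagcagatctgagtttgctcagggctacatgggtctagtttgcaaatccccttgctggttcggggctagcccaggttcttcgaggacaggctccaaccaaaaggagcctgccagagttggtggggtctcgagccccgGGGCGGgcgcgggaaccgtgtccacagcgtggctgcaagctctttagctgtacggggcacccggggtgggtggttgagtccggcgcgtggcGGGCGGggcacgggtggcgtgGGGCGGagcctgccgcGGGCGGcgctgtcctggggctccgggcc
Adam10, chr9:70678732-70679031, plus strand: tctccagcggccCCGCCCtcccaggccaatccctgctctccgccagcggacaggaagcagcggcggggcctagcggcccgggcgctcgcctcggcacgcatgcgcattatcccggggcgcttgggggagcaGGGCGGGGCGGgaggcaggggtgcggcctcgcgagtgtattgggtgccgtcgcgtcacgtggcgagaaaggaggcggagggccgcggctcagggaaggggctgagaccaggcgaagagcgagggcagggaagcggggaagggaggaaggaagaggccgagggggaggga
Adamts1, chr16:85803064-85803363, minus strand: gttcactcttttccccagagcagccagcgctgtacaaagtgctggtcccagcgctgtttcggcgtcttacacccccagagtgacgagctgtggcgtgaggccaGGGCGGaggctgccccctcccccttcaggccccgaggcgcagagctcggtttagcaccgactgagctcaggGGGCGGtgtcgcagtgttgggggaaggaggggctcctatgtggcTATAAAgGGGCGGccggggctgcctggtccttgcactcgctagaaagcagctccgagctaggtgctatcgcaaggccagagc

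A search on both strands for 6 motifs covered the same window of 32851 promoters. The GC box was found in 11 of the 13 promoters (84.6%), against 35.7% of all promoters. Adamtsl4 held 4, Adam10 and Adamts1 held 3 each, with overlapping copies in Adam10 counted each, and Adam17 held 1. The TATA box TATAAA was found in 2 of the 13 (15.4%), Adamts1 and Adamtsl2, against 13.6% of all promoters. The AP-1 letters TGANTCA, the STAT letters TTCNNNGAA and the glucocorticoid receptor letters AGAACA were found in 0 of the 13, against 7.81%, 8.3% and 19.0% of all promoters. The forkhead letters TGTTTAC were found in 1, Adam8, against 3.65%. The median number of CG dinucleotides in the window was 25 in the 13 promoters and 7 in all promoters. These matches describe the letters of the window only, and the data hold no binding or methylation measurement there.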

How the data were processed

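Biotin-labelled RNA of 58 muscle samples was hybridised to Affymetrix arrays, according to the labels. The authors deposited log2 values of 25206 probe sets, for which the submitters' processing notes name RMA, affy 1.36.1 and R 2.15.1. RMA's quantile step gives all arrays a like distribution, so that values near the array median (3.70 to 3.86) carry little signal and differences there are compressed. Neither the probe set build nor joint normalization of the cohorts is stated in what was read here. Symbols came from the platform annotation, with 1 probe set per gene, and 2021 probe sets without a symbol were not tested. No depth applies, and the number of arrays limits precision. No arrays were identical, with a highest correlation of 0.993, and 0 columns of other series were present.

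Groups (muscle, cohort, PDX or sham) were taken from the labels, which do not state that every array is a separate animal, so the p-values rest on sample-to-sample spread, which may be technical. In limma 3.58.1 (R 4.3.3), each muscle was fitted with a mean per cohort and treatment, two-sided. The difference between muscles and the sham comparison used 1 fit of all 58 arrays with 16 means. The steps were tested on simulated data. Same-numbered samples of both muscles were checked for pairing. Of 29 pairs, 4 had deviations correlated above 0.1 (median 0.017), and 13 matched best with their own number. The check did not settle whether such samples share a mouse, and the main fits used no pairing. The alternatives were array weights, replicate blocks, leaving out single arrays or cohorts, cohort as the replicate, albumin, tendon and fibroblast covariates and subsets, and a level limit of 5. An additive model of cohort and treatment was also fitted. The subset with albumin below 9, the level limit on sham arrays and the albumin and fibroblast covariates were chosen after seeing the data. The members, lists and tests were chosen with earlier results of these data known. Every described member was named, with up to 4 passed genes of a list. The alternatives followed the passed described members with the largest differences, up to 10 in the sham muscles, and a fixed list of members in both muscles.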

Additional observations from a re-analysis of the deposited data

Results flagged for a closer look

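The tumour effect differed between the diaphragm and the tibialis anterior for 7 described genes, by the interaction in limma: 1.11 for Adamts5, 1.00 for Adamts8, 0.76 for Adamtsl1, 0.48 for Adamts10, 0.42 for Adam10, 0.41 for Adamts20 and 0.40 for Adam9 (log2, diaphragm minus tibialis anterior).

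Single arrays stood apart from the rest of their group 11 times in 120 checks of a gene in a PDX group, and chance flags about 1 in 20. Replicate 1 of cohort 3 in the PDX tibialis anterior stood above the rest of its group in this way for 3 genes, at 9.23 for Adamts9 (next array 7.04), 7.65 for Adam9 (next 6.90) and 5.85 for Adamtsl2 (next 4.69). In the PDX tibialis anterior of cohort 2, replicate 1 was low for Adam9 at 6.64 and replicate 2 was low for Adamtsl2 at 4.08. In the PDX diaphragm of cohort 2, replicate 5 was high for Adam9 at 7.78 and replicate 1 was high for Adamtsl3 at 5.65. In the PDX diaphragm of cohort 3, replicate 4 was low for Adamts1 at 5.73 and for Adamtsl3 at 4.31, and replicate 5 was high for Adamts12 at 5.33. In the PDX diaphragm of cohort 4, replicate 2 was high for Adamts5 at 6.83 (next 5.87).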

How the results depend on the processing

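Counts are of the 20 described genes. In the diaphragm, 11 passed higher with all arrays, 3 without cohort 1, 3 without cohort 2, 7 without cohort 3, 1 with the cohort as the replicate, 4 without the arrays of high albumin, 3 with albumin below 9 and 7 at a level limit of 5. The gene that passed lower, Adam17, gave 0 without cohort 4, with the cohort as the replicate and under both albumin subsets. In the tibialis anterior, 1 passed higher with all arrays, 2 with array weights, and 0 without cohort 1, with albumin below 9 and with the tendon or fibroblast covariate. The 4 that passed lower became 0 with either covariate and 1 with albumin below 9. The 7 differences between the muscles became 3 without cohort 1 or cohort 2, 4 without high albumin and 2 with albumin below 9. In sham muscles, the 9 higher became 5 with albumin below 9, and the 3 lower became 1 without cohort 1, with albumin below 9 and at a level limit of 5. Leaving out single arrays gave 8 to 14 higher and 1 lower in the diaphragm, 1 to 2 higher (2 without PDX replicate 1 of cohort 3) and 3 to 5 lower in the tibialis anterior, 7 to 8 differences between muscles, and 8 to 10 higher and 3 to 4 lower in sham muscles.

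The genes followed through the alternatives were those that passed and, in both muscles, Adam9, Adam10, Adam15, Adamts1 and Adamts9. Adamts6 and Adam15 passed in the sham muscles but were not followed there. Among the genes followed, signs turned for 5 in the tibialis anterior. Other genes were not run. Adam15 turned to 0.067 without cohort 3, 0.33 and 0.69 with the tendon and fibroblast covariates and 0.0133 with albumin below 9. Adamts1 and Adamts9 turned to -0.18 and -0.24 without cohort 3. Adamts10 turned to 0.11 and 0.0485 with these covariates and Adam10 to 0.22 (fibroblast). Single arrays left out moved Adam15 between -0.0510 and 0.0177 and Adamts1 between -0.0595 and 0.13. With replicate number as a block, Adam9 (0.21, adjusted p = 0.0935) and Adamts6 (0.24, 0.0916) no longer passed in the diaphragm, nor Adamts10 (-0.27, 0.077) in the tibialis anterior, and Adamts9 (0.59, 0.0198) passed in the diaphragm. Whether these numbers pair samples was not settled. All 12 diaphragm genes, the 7 differences between muscles and the 10 sham differences examined kept their sign under every alternative that was run, and Adamts5 and Adamtsl1 kept a passed difference between muscles under all 14 that left out more than 1 array or changed the model.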
